A study of Arabis alpina with 18 samples.

Results

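The genes described here are 63 genes of Arabis alpina, a perennial relative of Arabidopsis, whose annotation in the authors' lists of changed genes names a component of the plant cell wall. They were found by searching the symbol and description of every gene in the 6 deposited lists for pectin, expansin, xyloglucan, cellulose, extensin, arabinogalactan or cell wall, leaving out receptors, transporters and P450 enzymes. A gene also needed an Arabidopsis locus and a single entry in the count table. Of 64 genes that held the words, 63 met this, out of 1399 listed genes with a locus and a single entry and 34220 genes in the count table. The gene left out was EXPA1, an expansin with more than 1 entry. Each list holds genes that the authors called higher or lower in eop055 than in pep1-1, so the genotype differences themselves chose the members. Those differences are given as a description, with no test, wherever they come from the libraries that put a gene on a list.

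The RNA carried poly(A) tails and came from Pajares plants, kept in long days. There were 6 groups of 3 libraries: leaves of eop055 and of pep1-1 mutants at 5 weeks, dissected shoot apices of eop055 and of pep1-1 at 5 weeks, and dissected shoot apices of eop055 and of pep1-1 at 3 weeks. PEP1 represses flowering in A. alpina and corresponds to FLC of Arabidopsis. The series is about TOE2, an AP2-like repressor of flowering. No group is a wild type. The labels give no lesion for eop055 and do not say whether eop055 carries pep1-1 as well. They also leave out whether a replicate is 1 plant or several, so the p-values reflect the spread among these samples, which may be technical.

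A growing plant cell is held by a wall of cellulose fibres tied together by xyloglucan and embedded in pectin. Expansins loosen this network, xyloglucan endotransglucosylase/hydrolases (XTHs) cut and rejoin xyloglucan chains, and pectin methylesterases and polygalacturonases alter the pectin gel. Extensins and arabinogalactan proteins are glycoproteins of the wall and cell surface. In Arabidopsis, large families encode each of these, and many of their members follow growth, hormones, touch or wounding. Roles given below are those of the Arabidopsis genes that the authors' lists pair with the A. alpina genes. Reads of near-identical family members may not be assigned to the right copy, or to any, so a value for 1 member of a family is uncertain to that extent.

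By the first of the search words found, 3 members were classed as expansins, 8 as xyloglucan genes, 7 as cellulose genes, 2 as extensins, 7 as arabinogalactan proteins, 15 as pectin genes and 21 under the words cell wall alone. The label holds for most of the first 6 classes but less well for the last. In 17 of those 21 the description has a location field, and the class includes proteases, chitinases, lectin-like and leucine-rich repeat proteins and BCAT-2, an amino acid transaminase. TCH4, which encodes an XTH, was also classed there, and FLA12 and GAUT12 were classed with the cellulose genes because their descriptions mention cellulose. In the authors' deposited tables, 37 members were listed as higher and 5 as lower in eop055 leaves, 8 as higher and 9 as lower in eop055 apices at 5 weeks, and 7 as higher and 0 as lower in eop055 apices at 3 weeks. The higher share of the leaf listings was 88.1%, against 88.5% of all leaf listings with a locus. Only PRX71, PME17 and BCAT-2 were listed in more than 1 tissue or age. The smallest log2 fold change listed for a member in the authors' deposited tables was 1.0 in size, and the fit used here gave the same sign for all 65 listings it could compare.

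Libraries held between 7987096 and 14132723 gene counts. Values are CPM, counts scaled to library size, after TMM scaling, which adjusts for RNA composition, and means carry the SD over 3 libraries. In all, 62 members passed the filter on low counts; AT1G44130, an aspartyl protease homolog, did not and stood at 1.86, 0.808 and 0.841 CPM in eop055 leaves against 0.102, 0.102 and 0.209 CPM in pep1-1 leaves. Log2 fold changes carry their SE and, where tested, an adjusted p (edgeR, quasi-likelihood test; Benjamini-Hochberg adjustment over 21275 genes); genes with an adjusted p under 0.05 are called.

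The eop055 leaf libraries stood apart from each other. Of the 37 members listed as higher in leaves, 31 were highest in eop055 replicate 2 and 32 were lowest in replicate 3. Their levels relative to the pep1-1 leaf mean had a median ratio of 3.01, 3.71 and 1.92 in eop055 replicates 1, 2 and 3. The same order held for most other genes listed as higher in leaves, of which 540 of 769 were highest in replicate 2 and 628 lowest in replicate 3. It also held for 3 touch and wounding markers. Markers were looked up only among the authors' listed genes with a locus and a single entry, which held 3 of a list of 6. A listed genotype difference thus chose these 3, so they are a description and no independent check. WRKY40 stood 11.9, 20.6 and 3.81 times above the pep1-1 mean in the 3 libraries. JAZ1 stood 5.31, 6.23 and 1.6 times above it, and ZAT12 5.14, 11.7 and 1.56 times. The summed level of the 3 markers was 225 to 1200 CPM in eop055 leaves, against 66.9 to 109 CPM in pep1-1 leaves. No marker of the 3 was at 0 in any group. In apices at 5 weeks the sums ran the other way, at 15.9 to 22.0 CPM in eop055 against 32.9 to 42.5 CPM in pep1-1. Most of these apical sums was JAZ1, at 17.5 ± 3.29 CPM in eop055 and 34.6 ± 4.52 CPM in pep1-1. WRKY40 had means of 0.716 CPM in eop055 and 2.81 CPM in pep1-1 there, and ZAT12 of 0.264 and 0.269 CPM. None of the 3 was called between genotypes in 5-week apices. At 3 weeks the genotypes overlapped, at 26.7 to 60.9 CPM in eop055 and 52.7 to 86.4 CPM in pep1-1. The part of these responses in the leaf values was not tested. Without eop055 leaf replicate 2 the median log2 difference of the 36 tested members listed as higher in leaves was 1.34, and without replicate 3 it was 1.81, against 1.57 with all libraries.

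**Figure D1:**
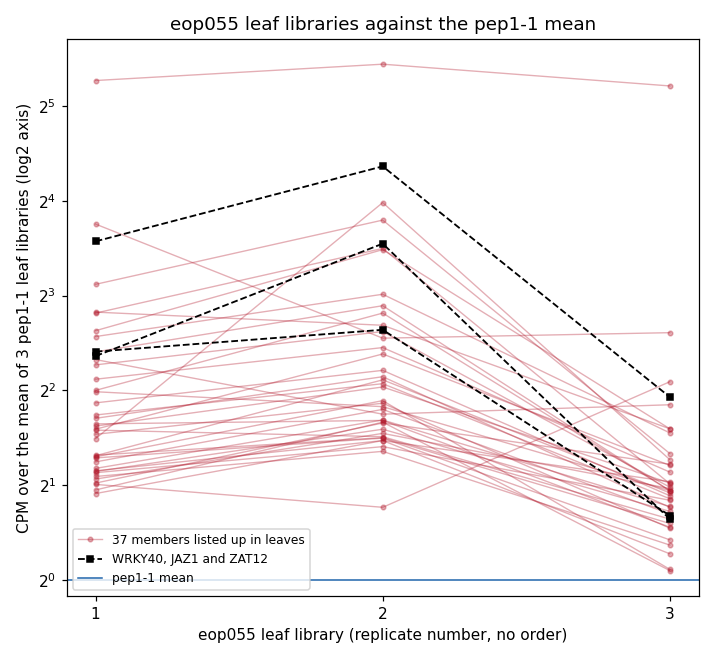
CPM of the 37 members listed as higher in eop055 leaves (red) and of WRKY40, JAZ1 and ZAT12 (black dashes) in each of the 3 eop055 leaf libraries, divided by the mean of the 3 pep1-1 leaf libraries, on a log2 axis; lines only link the values of 1 gene. Replicate 2 was the highest library for 31 members and replicate 3 the lowest for 32.

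Most of these genes had more RNA in leaves than in apices. The tissue effect is leaf minus apex at 5 weeks with both genotypes weighted equally. It is another contrast than the genotype differences behind the lists, but it averages libraries that the listings used, so a high eop055 leaf level enters it. Of 62 members tested, 44 were higher and 16 lower in leaves than in apices, where 40.4% and 46.8% of all genes tested were called higher and lower. The members' median log2 difference was 2.13, against -0.14 for all genes tested and 1.84 for all genes with a locus that the authors listed. Among those listed genes 68.1% were higher and 23.8% lower in leaves, so much of this is shared by the lists as a whole. In pep1-1 libraries alone 40 members were higher and 15 lower in leaves, against 37.3% and 43.0% of all genes and 57.3% and 24.5% of all listed genes with a locus. The 5 members listed in 3-week apices alone, whose listing used none of these libraries, were all higher in leaves, as were 74.4% of 82 other genes listed only there. With pep1-1 libraries alone 4 of the 5 were called higher in leaves, against 67.1% of those 82 genes. With no overlap between the 6 leaf and 6 apex libraries, 37 members were higher and 9 lower, against 32.5% and 36.8% of all genes. The direction of the means was the same in eop055 and in pep1-1 for 43 of the 44 higher members, CYS4 being the exception, and for 14 of the 16 lower ones, EXPA9 and AT1G02460 being the exceptions. In bulk tissue, fewer cells of a type and less RNA per cell cannot be told apart.

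With age, apical levels of 29 of the 62 members fell and those of 6 rose. The age effect is 5 minus 3 weeks in apices, again with equal weight for both genotypes. It was called in neither direction for 27, and the members' median log2 difference was -0.51. Among all genes tested 25.3% were called lower and 24.0% higher, with a median of 0.01, and among all listed genes with a locus 28.7% were lower and 14.3% higher, with a median of -0.2. With no overlap between the 6 libraries of each age, 19 members were lower and 3 higher, against 12.9% and 10.7% of all genes. Of the 38 tested members listed in leaves alone, whose listing used no apical library, 14 fell and 4 rose, against 20.4% and 9.96% of 793 other genes listed only in leaves. In pep1-1 apices alone 14 of the 62 members were lower at 5 weeks and 4 higher, against 20.3% and 18.7% of all genes, so in that genotype the share that fell was near that of all genes. The fall held in the means of both genotypes for 26 of the 29 members; XTH7 and FLA12 were lower at 5 weeks in eop055 alone, and AT5G21100 in pep1-1 alone. Of the 6 that rose, EXPA9 was the exception, with a higher mean at 5 weeks in pep1-1 and a lower one in eop055.

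**Figure D2:**
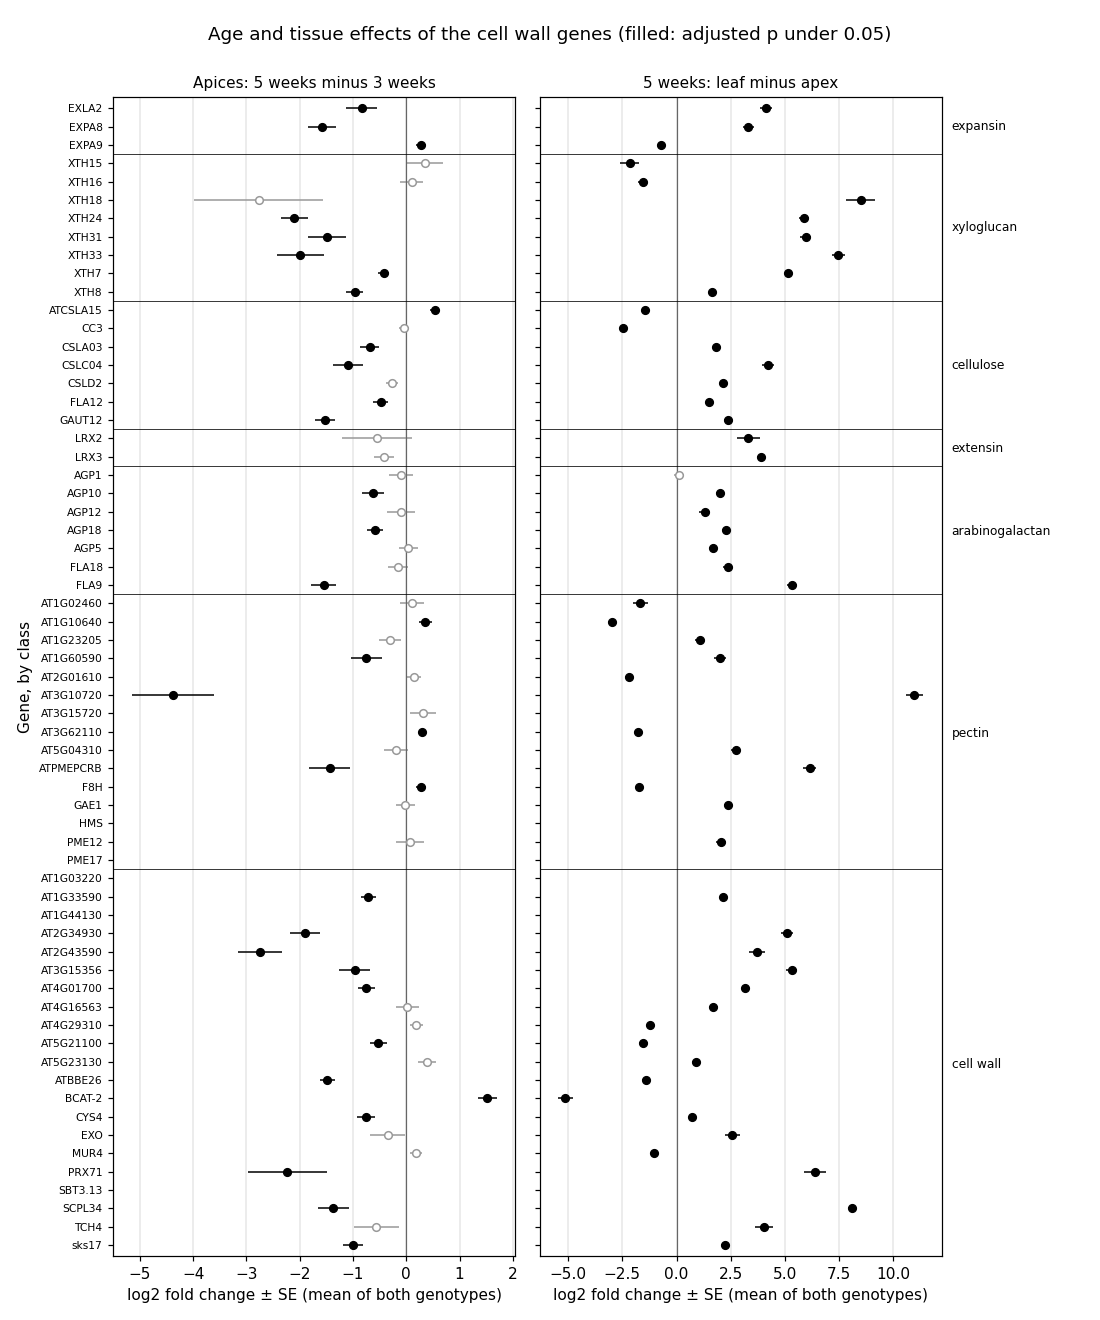
Log2 fold change ± SE of each member, by class, for 5 minus 3 weeks in apices (left) and leaf minus apex at 5 weeks (right), each the mean of both genotypes; filled points were called. Members with 3 or fewer counts on a side, SBT3.13 and the untested AT1G44130 are not drawn. In the age panel 29 members were called lower and 6 higher, and in the tissue panel 44 were called higher and 16 lower.

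The authors' lists differ in these properties. The 7 members listed as higher in 3-week eop055 apices were XTH31, GAUT12, PRX71, PME17, AT3G10720, AT1G03220 and AT2G43590. All 7 were higher in leaves than in 5-week apices, as were 81.5% of 92 other genes on that list. Their age effect was called lower for 6, against 58.7% of the other genes. A high eop055 level at 3 weeks put them on the list and enters this effect; in pep1-1 apices alone 3 of the 7 were called lower, GAUT12, AT3G10720 and AT1G03220. The 9 members listed as lower in 5-week eop055 apices were EXPA8, EXPA9, XTH7, XTH8, FLA9, FLA12, CYS4, ATBBE26 and AT3G15356. Their age effect was called lower for 8 and higher for 1, against 43.9% and 12.6% of 198 other genes on that list. A low eop055 level at 5 weeks put them on the list and enters this effect too; in pep1-1 apices alone EXPA8 and ATBBE26 were called lower, EXPA9 and XTH7 higher and the other 5 in neither direction. Apical levels of these genes at both ages are therefore given below.

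**Figure D3:**
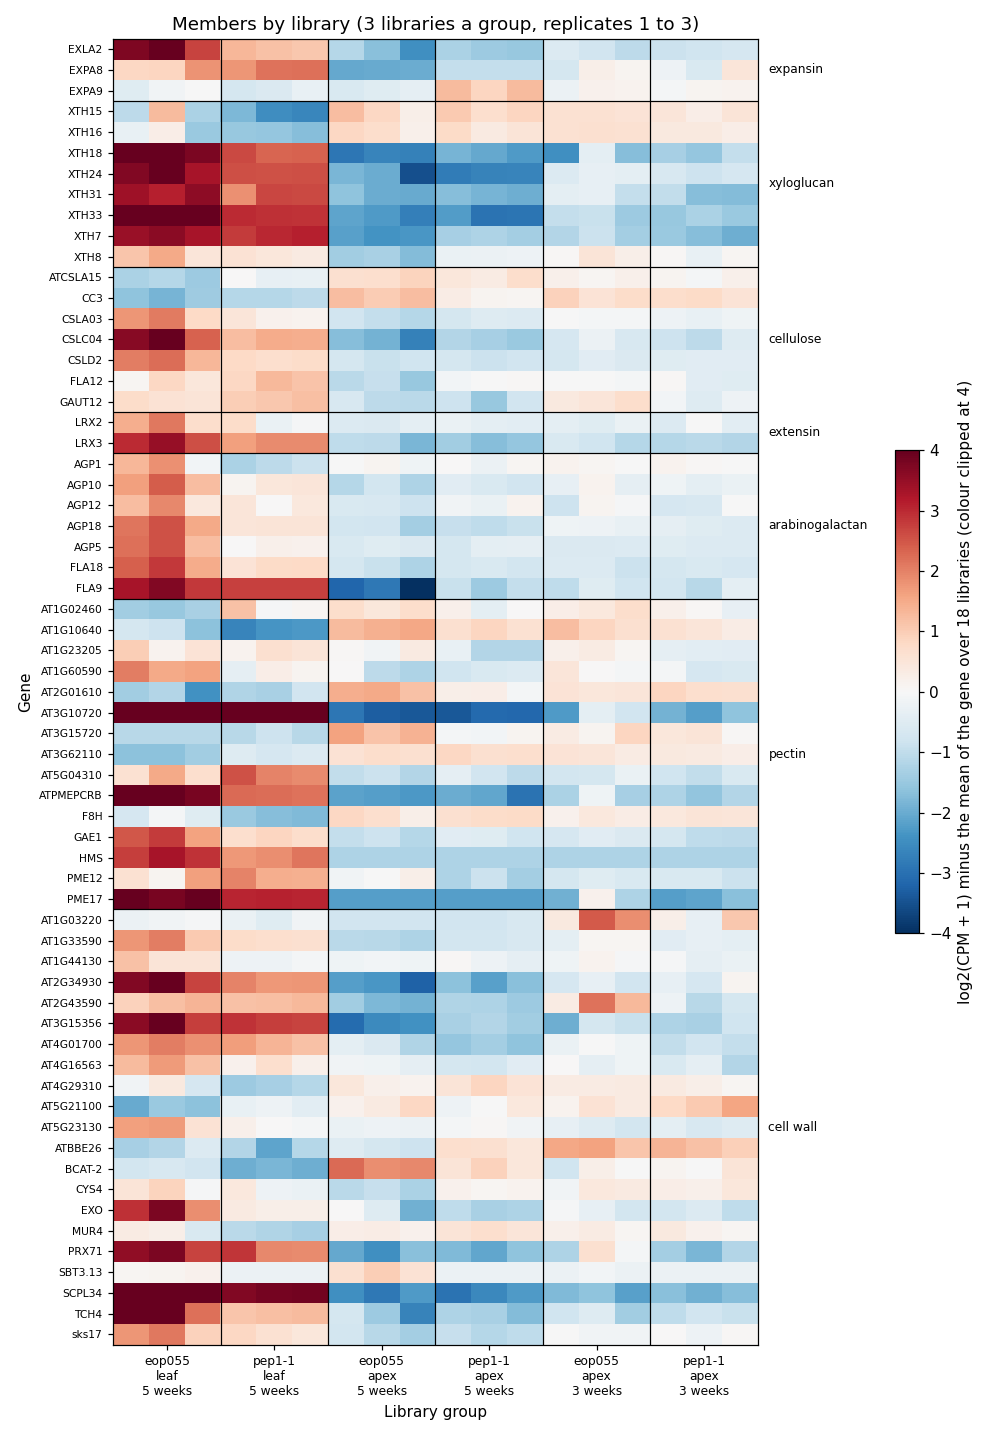
Level of each of the 63 members (rows, by class) in each of the 18 libraries (columns, 3 per group), as log2(CPM + 1) minus the mean of that gene over all libraries, with the colour clipped at 4. Leaf libraries carry the highest values for most rows, 44 of 62 tested members being called higher in leaves.

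Expansins loosen the wall as cells enlarge. EXLA2, an expansin-like gene, had 300, 409 and 148 CPM in eop055 leaves, against 46.4 to 55.4 CPM in pep1-1 leaves. The genotypes did not overlap there, where EXLA2 was listed as higher, and the log2 difference was 2.49 ± 0.323. In apices the libraries of the genotypes overlapped at both ages, with tested log2 differences of -0.30 ± 0.455 at 5 weeks and 0.01 ± 0.387 at 3 weeks that were not called. EXLA2 was higher in leaves than in apices by 4.13 ± 0.273 on the log2 scale and fell by 0.84 ± 0.297 with age (adjusted p 0.0325), a call lost without any 1 of 7 apical libraries, with values between -0.68 and -0.84.

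The alpha-expansin EXPA8 was listed as lower in 5-week eop055 apices. It stood at 4.80, 4.95 and 5.06 CPM in eop055 and at 11.4, 11.4 and 11.5 CPM in pep1-1 apices at 5 weeks, and at 14.0, 27.6 and 25 CPM in eop055 and 20.1, 15.0 and 32.8 CPM in pep1-1 apices at 3 weeks. The genotypes were apart at 5 weeks and overlapped at 3 weeks, and in both genotypes the 5-week libraries lay below the 3-week ones. The age effect was -1.58 ± 0.266 (adjusted p 0.000294). Leaves held more, 55.6 ± 23.0 CPM in eop055 and 99.9 ± 15.4 CPM in pep1-1, and the tissue effect was 3.31 ± 0.259. The tested leaf difference between genotypes, -0.84 ± 0.307, was not called (adjusted p 0.0632). With DESeq2 and with a replicate block it was called lower in eop055.

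The other alpha-expansin, EXPA9, moved with age in opposite directions in the 2 genotypes. It had 13.5, 14.6 and 16 CPM in eop055 and 51.9, 38.9 and 51.3 CPM in pep1-1 apices at 5 weeks, against 17.6, 23.9 and 23.0 CPM in eop055 and 19.9, 22.8 and 23.1 CPM in pep1-1 apices at 3 weeks. Levels at 5 weeks were below those at 3 weeks in eop055 and above them in pep1-1, with no overlap in either genotype. The mean age effect of 0.28 ± 0.0972 (adjusted p 0.0196) was lost with DESeq2 and without any 1 of 5 apical libraries, with values of 0.22 to 0.25, and was the direction of pep1-1 alone. Its tissue effect, -0.72 ± 0.104, was likewise carried by pep1-1, whose mean ratio of leaf to apex was 0.301, against 1.23 in eop055.

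Of the classes, the xyloglucan genes, all XTHs, had the highest median tissue effect: 6 of 8 were higher and 2 lower in leaves, with a median log2 difference of 5.51. With age 5 fell, 0 rose and 3 were not called. The shares of all genes tested were 40.4% higher and 46.8% lower in leaves, and 25.3% lower and 24.0% higher with age. The eop055 apical levels that listed XTH7, XTH8 and XTH31 enter the age count. In pep1-1 apices alone XTH24 and XTH33 were called lower at 5 weeks, XTH7 higher and the others in neither direction. XTH33, which encodes a membrane-localised XTH, had 232, 403 and 178 CPM in eop055 leaves and 79.8, 76.3 and 75.0 CPM in pep1-1 leaves. In apices at 5 weeks it stood at 1.00 ± 0.432 CPM in eop055 and 0.597 ± 0.475 CPM in pep1-1, and at 3 weeks at 3.83 ± 0.948 and 2.77 ± 0.356 CPM in eop055 and pep1-1. Levels were thus far higher in leaves, by 7.45 ± 0.295 on the log2 scale, and fell by 1.99 ± 0.444 with age (adjusted p 0.00234). XTH24 had the same pattern, with 505 ± 150 CPM in eop055 and 220 ± 1.11 CPM in pep1-1 leaves, a tissue effect of 5.87 ± 0.245 and an age effect of -2.10 ± 0.251.

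XTH18 had 338, 542 and 98.2 CPM in eop055 leaves, against 44.5, 35.7 and 36.5 CPM in pep1-1 leaves. All 3 eop055 libraries were higher, replicate 3 by the least. In 5-week apices it was near the limit of detection, at 0, 0.183 and 0.131 CPM in eop055 and 1.02, 0.792 and 0.525 CPM in pep1-1, and the tested log2 difference of -2.78 ± 2.52 was not called. Its tissue effect was 8.5 ± 0.667.

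XTH15 and XTH16 were the 2 members of the class with more RNA in apices. XTH15 had 7.23, 40.6 and 6.2 CPM in eop055 leaves and 3.89, 2.04 and 1.78 CPM in pep1-1 leaves. Replicate 2 of eop055 was several times above the other eop055 libraries, and the log2 difference of 2.75 ± 0.733 was 1.38 without it. In apices XTH15 means lay between 22.2 and 30.3 CPM in all 4 groups, and its tissue effect was -2.16 ± 0.435. XTH16 had 128, 192 and 55.9 CPM in eop055 leaves and 54.6, 53.2 and 47.7 CPM in pep1-1 leaves, a difference of 1.26 ± 0.328 that was 0.83 without eop055 replicate 2, and a tissue effect of -1.57 ± 0.225.

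The remaining XTHs were listed in apices, so their leaf values are tests. XTH7 was listed as lower in 5-week eop055 apices, with 8.99, 7.58 and 7.89 CPM in eop055 and 16.9, 17.9 and 16.5 CPM in pep1-1. In leaves the order was the other way round, with 487, 541 and 442 CPM in eop055 and 311, 363 and 386 CPM in pep1-1, and the genotypes did not overlap (log2 difference 0.47 ± 0.111, adjusted p 0.00371). At 3 weeks it was also higher in eop055 apices, with 18.7, 23.8 and 16.4 CPM against 14.8, 12.7 and 10.5 CPM in pep1-1 (0.64 ± 0.140, adjusted p 0.0130). The 3-week call was lost without pep1-1 replicate 2 or 3 or eop055 replicate 2 of those apices, with values of 0.65, 0.52 and 0.48. XTH7 thus fell with age in eop055, at a 5-week to 3-week ratio of 0.415, and had a ratio of 1.35 in pep1-1, without overlap in either.

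XTH8 was also listed as lower in 5-week eop055 apices, with 21.5, 23.2 and 16.8 CPM in eop055 against 48.5, 49.4 and 50.6 CPM in pep1-1. At 3 weeks it stood at 70.0 ± 11.5 CPM in eop055 and 55.8 ± 7.89 CPM in pep1-1 apices. Its leaf level was called higher in eop055, with 125, 167 and 81.7 CPM against 86.9, 79.3 and 73.8 CPM in pep1-1, although replicate 3 of eop055 lay among the pep1-1 libraries. That call (0.63 ± 0.211, adjusted p 0.0418) was lost with only the leaf groups in the fit (0.65), with no filter on low counts (0.62) and without any 1 of 12 of the 18 libraries, with a value of 0.37 without eop055 leaf replicate 2. XTH31 was listed as higher in 3-week eop055 apices and was called higher in eop055 leaves, with 64.2, 52.0 and 73.0 CPM against 21.2, 38.8 and 37.6 CPM in pep1-1 and no overlap (0.96 ± 0.223, adjusted p 0.00477). With only the leaf groups in the fit the difference of 0.97 was not called. In 5-week apices XTH31 was at 0.702 ± 0.284 CPM in eop055 and 0.732 ± 0.143 CPM in pep1-1, and the difference of -0.11 ± 0.628 was not called. At 3 weeks XTH31 stood at 3.28 ± 0.957 CPM in eop055 and 1.3 ± 0.734 CPM in pep1-1 apices. It fell by 1.49 ± 0.363 with age. In pep1-1 apices alone its age effect of -0.75 ± 0.562 was not called.

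The cellulose class holds synthase-like glycosyltransferases, a cellulose synthase companion and 2 secondary wall genes. Of its 7 members 5 were higher and 2 lower in leaves, and with age 1 rose, 4 fell and 2 were not called. The shares of all genes tested were 40.4% higher and 46.8% lower in leaves, and 24.0% higher and 25.3% lower with age. In pep1-1 apices alone GAUT12 and CC3 were called lower at 5 weeks, ATCSLA15 higher and the others in neither direction. CSLC04, whose Arabidopsis counterpart makes the glucan backbone of xyloglucan, had 693, 884 and 284 CPM in eop055 leaves and 129, 152 and 151 CPM in pep1-1 leaves, with no overlap. Leaf levels exceeded apical ones by 4.21 ± 0.281 on the log2 scale, and apical levels fell by 1.09 ± 0.278 with age (adjusted p 0.00562). CSLD2, of a family linked to tip growth, and CSLA03, of the mannan synthase family, were listed as higher in eop055 leaves too. CSLD2 had 286, 326 and 174 CPM in eop055 against 120, 109 and 116 CPM in pep1-1 leaves, while its apical means lay between 39.2 and 49.6 CPM. CSLA03 had 53.5, 67.3 and 27.0 CPM in eop055 leaves and 21.6, 17 and 16.8 CPM in pep1-1 leaves, and fell by 0.69 ± 0.179 with age.

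ATCSLA15, another member of the CSLA family, ran against these. It had 6.57, 7.27 and 5.78 CPM in eop055 leaves and 17.4, 13.7 and 14.1 CPM in pep1-1 leaves, and was listed as lower there. Its tissue effect was -1.47 ± 0.0922 and it rose with age by 0.53 ± 0.0814 (adjusted p 1.08e-05), the 2 ages not overlapping.

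CC3, a companion of cellulose synthase, was listed as higher in 5-week eop055 apices, with 17.9, 15.2 and 17.7 CPM in eop055 and 8.78, 7.72 and 7.44 CPM in pep1-1. At 3 weeks the genotypes overlapped, at 12.3 ± 1.70 and 11.8 ± 0.907 CPM in eop055 and pep1-1. In leaves it was called lower in eop055, with 1.64, 1.21 and 2.00 CPM against 2.66, 2.65 and 2.83 CPM in pep1-1 and no overlap (-0.72 ± 0.240, adjusted p 0.0323). These leaf levels are low, and the call was lost with DESeq2, with only the leaf groups in the fit and without any 1 of 5 leaf libraries, with values between -0.57 and -0.73.

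FLA12, a fasciclin-like protein of xylem, was listed as lower in 5-week eop055 apices, with 5.90, 6.66 and 4.14 CPM against 12.6, 13.5 and 14.0 CPM in pep1-1. Of a list of 9 xylem markers it was the only gene found among the authors' listed genes, where alone markers were looked up. At 3 weeks FLA12 stood at 13.2 ± 0.35 CPM in eop055 and 11.1 ± 2.54 CPM in pep1-1 apices. In leaves it had 14.3, 25 and 18.8 CPM in eop055 and 24.8, 35 and 31.5 CPM in pep1-1; the ranges overlapped slightly, and the difference was called (-0.66 ± 0.184, adjusted p 0.0111). That call was lost with only the leaf groups in the fit (-0.65) and without pep1-1 leaf replicate 2 (-0.54) or eop055 leaf replicate 1 (-0.48). GAUT12, needed for xylan in Arabidopsis stems, was listed as higher in 3-week eop055 apices, with 5.04, 5.42 and 6.49 CPM against 3.23, 2.21 and 2.96 CPM in pep1-1. At 5 weeks it stood at 1.44 ± 0.415 CPM in eop055 and 1.28 ± 0.597 CPM in pep1-1, and it fell by 1.52 ± 0.187 with age (adjusted p 4.45e-07).

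Both leucine-rich repeat extensins, which in Arabidopsis link the wall to the cell surface, were listed as higher in eop055 leaves. LRX3 had 602, 855 and 454 CPM in eop055 and 235, 281 and 283 CPM in pep1-1 leaves, with no overlap, and was higher in leaves than in apices by 3.88 ± 0.186 on the log2 scale. LRX2 had 3.29, 5.79 and 1.58 CPM in eop055 and 1.64, 0.306 and 0.523 CPM in pep1-1 leaves, which overlapped, and averaged between 0.109 and 0.271 CPM in the apical groups. Neither changed past the threshold with age.

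Among the arabinogalactan proteins, 6 of 7 were higher in leaves and 3 fell with age, against 40.4% and 25.3% of all genes tested. High eop055 leaf levels listed 6 of the 7 and enter the tissue effect. In pep1-1 libraries alone AGP1 was called lower in leaves (-1.02 ± 0.352), AGP12 was not called (0.44 ± 0.369) and the others were called higher. In pep1-1 apices alone none of the 7 was called with age. AGP18 had 1020, 1350 and 671 CPM in eop055 leaves and 326, 331 and 335 CPM in pep1-1 leaves, and fell by 0.59 ± 0.147 with age on the log2 scale. The fasciclin-like FLA18 had 416, 563 and 217 CPM in eop055 leaves and 113, 134 and 135 CPM in pep1-1 leaves. AGP5 had 123, 155 and 62.2 CPM in eop055 leaves and 25.9, 30.0 and 29.1 CPM in pep1-1 leaves. In each the eop055 libraries were all higher, while in apices AGP5 means lay between 16.9 and 18.3 CPM in all 4 groups. AGP10 had 66.4 ± 29.1 and 22.9 ± 3.47 CPM in eop055 and pep1-1 leaves and fell by 0.63 ± 0.203 with age (adjusted p 0.0201), a call lost without eop055 replicate 3 at 5 weeks (-0.58) or replicate 2 at 3 weeks (-0.53).

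AGP1 was the member of this class without a called tissue effect (0.11 ± 0.240). Its level was 196, 275 and 71.2 CPM in eop055 leaves and 31.8, 37.1 and 42.1 CPM in pep1-1 leaves, while its apical means lay between 75.1 and 81.4 CPM. Leaf levels were therefore above the apical ones in eop055 replicates 1 and 2 and below them in every pep1-1 library. AGP12, an arabinogalactan peptide, had 26.1, 42.8 and 14.4 CPM in eop055 leaves and 15.3, 10.7 and 14.5 CPM in pep1-1 leaves, which overlapped, and its difference of 1.02 ± 0.351 was 0.59 without eop055 replicate 2.

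FLA9 was the arabinogalactan protein listed in apices. It had 6.52, 8.19 and 2.69 CPM in eop055 and 35.6, 23.6 and 34.0 CPM in pep1-1 apices at 5 weeks, against 32.2, 47.2 and 37.5 CPM in eop055 and 39.7, 30.3 and 50.6 CPM in pep1-1 apices at 3 weeks. Only the 5-week eop055 libraries lay apart from the other apical libraries. In leaves it had 663, 872 and 475 CPM in eop055 and 448, 442 and 443 CPM in pep1-1; every eop055 library was higher, but the difference of 0.59 ± 0.268 was not called (adjusted p 0.130). FLA9 was higher in leaves than in apices by 5.33 ± 0.242.

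**Figure D4:**
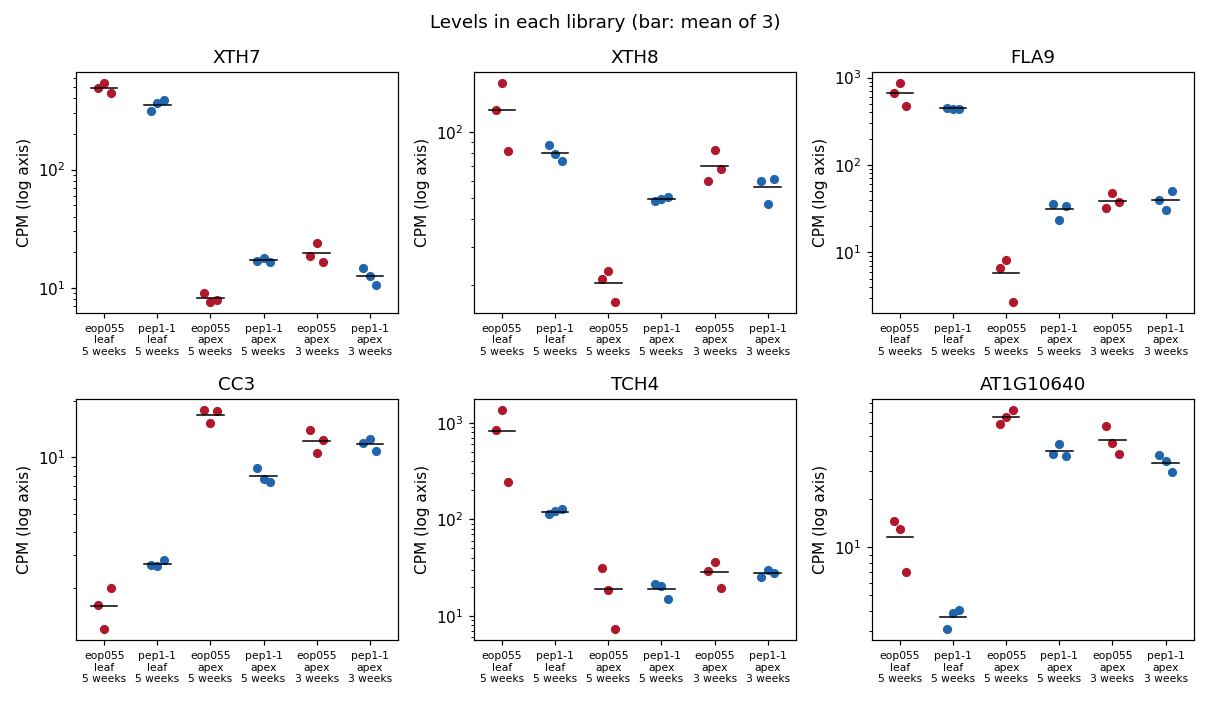
CPM of 6 members in each library on log axes, with bars at the mean of 3 libraries; eop055 groups are red and pep1-1 groups blue. XTH7, XTH8 and FLA9 were lower in eop055 than in pep1-1 apices at 5 weeks and had higher means in eop055 leaves, CC3 ran the other way, TCH4 overlapped between genotypes in apices but not in leaves, and AT1G10640 was higher in eop055 leaves and 5-week apices.

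Pectin genes were the most mixed class: 9 of 15 were higher and 6 lower in leaves, and with age 3 rose, 3 fell and 9 were not called. The shares of all genes tested were 40.4% higher and 46.8% lower in leaves, and 24.0% higher and 25.3% lower with age. In pep1-1 apices alone AT2G01610 and AT3G10720 were called lower at 5 weeks, AT3G62110 higher and the others in neither direction. Pectin methylesterases remove methyl groups from the pectin backbone. ATPMEPCRB, a methylesterase under brassinosteroid control, had 566, 514 and 241 CPM in eop055 leaves and 81.3, 80.6 and 77.6 CPM in pep1-1 leaves, with no overlap. It was higher in leaves than in apices by 6.13 ± 0.310 on the log2 scale and fell by 1.44 ± 0.378 with age (adjusted p 0.00695). GAE1, which makes the galacturonic acid precursor of pectin, had 200, 251 and 108 CPM in eop055 leaves and 56.3, 64.6 and 58.3 CPM in pep1-1 leaves.

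Another 3 methylesterases were detected mainly in leaves. HMS had 14.9, 21.9 and 16.2 CPM in eop055 leaves and 6.86, 7.55 and 9.31 CPM in pep1-1 leaves, and 0 counts in all 12 apical libraries. Against a floor of 3 counts over the 6 apical libraries of 5 weeks, HMS was at least 344-fold higher in leaves. PME17 had 74.1, 62.5 and 157 CPM in eop055 leaves and 36.5, 37.4 and 36.5 CPM in pep1-1 leaves, and 0 counts in the 6 libraries of 5-week apices, so it was at least 1870-fold higher in leaves. At 3 weeks PME17 had 0.204, 4.11 and 0.938 CPM in eop055 apices and 0, 0.0691 and 0.432 CPM in pep1-1 apices, and replicate 2 of eop055 stood highest. AT3G10720, another gene of the family, had 339 ± 78.4 CPM in eop055 and 226 ± 11.6 CPM in pep1-1 leaves against 0.158 ± 0.222 CPM in eop055 and 0.124 ± 0.108 CPM in pep1-1 apices at 5 weeks. It was higher in leaves by 10.97 ± 0.411 and fell by 4.38 ± 0.776 with age. Its 3-week listing rested on 1.16, 6.99 and 5.16 CPM in eop055 and 1.84, 1.24 and 2.41 CPM in pep1-1, which overlapped, and the difference of 1.25 was 0.72 without eop055 replicate 2.

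PME12 and the inhibitor-family gene AT2G01610 were listed as higher in 5-week eop055 apices. PME12 had 8.24, 9.11 and 10.8 CPM in eop055 and 3.31, 4.55 and 2.97 CPM in pep1-1. AT2G01610 had 74.6, 77.6 and 60.5 CPM in eop055 and 31.6, 32.3 and 25.2 CPM in pep1-1. Neither overlapped between genotypes at 5 weeks, and in leaves both had a mean lower in eop055, with tested differences of -0.72 ± 0.295 and -0.59 ± 0.269 that were not called. With DESeq2 both were called lower in eop055 leaves.

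Polygalacturonases cut the pectin backbone. AT1G10640, annotated with this activity, was listed as higher in eop055 leaves, with 14.6, 13.1 and 7.05 CPM in eop055 and 3.07, 3.88 and 4.08 CPM in pep1-1. In 5-week apices, which its listing did not use, it was also higher in eop055, with 59.2, 65.7 and 72.4 CPM against 38.2, 44.4 and 37.1 CPM in pep1-1 and no overlap (0.72 ± 0.175, adjusted p 0.0110). The call was lost without pep1-1 replicate 3 (0.66). Its tissue effect was -2.98 ± 0.161 and it rose with age by 0.36 ± 0.124 (adjusted p 0.0274), a call lost with RLE scaling (0.31) and without any 1 of 5 apical libraries (0.29 to 0.34).

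AT1G02460, with the same annotation, was listed as lower in eop055 leaves, at 0.219, 0.135 and 0.315 CPM in eop055 against 6.24, 2.14 and 2.41 CPM in pep1-1. In apices it had the higher mean in eop055 at both ages, 3.96 ± 0.466 against 2.14 ± 0.604 CPM in pep1-1 at 5 weeks and 3.46 ± 0.697 against 2.19 ± 0.589 CPM in pep1-1 at 3 weeks, with no overlap at either; neither difference was called. AT3G15720 had 5.63, 3.73 and 4.67 CPM in eop055 and 1.02, 0.990 and 1.31 CPM in pep1-1 apices at 5 weeks, where it was listed as higher, and 2 counts in the 6 leaf libraries against 255 in the apices of that age, a ratio of 84.4 in favour of apices (95% Clopper-Pearson interval 23.1 to 701, counting error only). AT1G60590 had 15.7, 10.5 and 11.3 CPM in eop055 leaves and 2.15, 3.88 and 3.35 CPM in pep1-1 leaves. It fell by 0.75 ± 0.294 with age (adjusted p 0.0420), a call lost without the low-count filter and without any 1 of 8 libraries; the effect was between -0.58 and -0.79 then, and -1.19 without eop055 replicate 1 at 5 weeks.

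The other pectin genes were split by tissue as well. AT3G62110, with a polygalacturonase annotation, was listed as lower in eop055 leaves, with 11.2, 11.2 and 13.4 CPM in eop055 and 25.4, 22.4 and 24.6 CPM in pep1-1. Its tissue effect was -1.80 ± 0.0646, and it rose by 0.29 ± 0.0568 with age (adjusted p 0.000196), with no overlap between the ages. The pectate lyase homolog AT5G04310 was also listed as lower in eop055 leaves, with 14.6 ± 5.89 CPM in eop055 and 34.4 ± 9.26 CPM in pep1-1, but was higher in leaves than in apices by 2.72 ± 0.199. F8H, a glycosyltransferase homolog, had 24.9, 38.6 and 28.5 CPM in eop055 leaves and 13.7, 11.8 and 11.2 CPM in pep1-1 leaves. Its apical means lay between 50.2 and 67.0 CPM, and its rise of 0.28 ± 0.0972 with age (adjusted p 0.0239) was lost with RLE scaling (0.24) and without any 1 of 6 libraries (0.21 to 0.27). AT1G23205, of the inhibitor family, had 4.32, 3.73 and 5.65 CPM in eop055 and 3.24, 1.29 and 1.31 CPM in pep1-1 apices at 5 weeks, where it was listed as higher. The genotypes did not overlap, and the difference of 1.14 was 1.79 without pep1-1 replicate 1.

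The 21 genes classed by the words cell wall alone included 14 higher and 5 lower in leaves and 12 that fell and 1 that rose with age. The shares of all genes tested were 40.4% higher and 46.8% lower in leaves, and 25.3% lower and 24.0% higher with age. In pep1-1 apices alone AT1G03220, AT2G34930, AT4G01700, AT5G21100, ATBBE26, SCPL34 and sks17 were called lower at 5 weeks, and none was called higher. TCH4, a touch-induced XTH, had 846, 1350 and 242 CPM in eop055 leaves and 113, 121 and 127 CPM in pep1-1 leaves. EXO, a brassinosteroid-responsive growth gene, had 1040, 1870 and 505 CPM in eop055 leaves and 177, 163 and 162 CPM in pep1-1 leaves. In both, every eop055 library was higher, replicate 2 most and replicate 3 least, the order of the touch and wounding markers given above. In 5-week apices TCH4 had 31.5, 18.3 and 7.23 CPM in eop055 and 21.4, 20.3 and 15.0 CPM in pep1-1, which overlapped, and the difference was not called, with an SE of 0.610. EXO had 138, 96.0 and 35.7 CPM in eop055 and 67.9, 55.5 and 57.6 CPM in pep1-1 there, again overlapping (0.57 ± 0.477). Neither changed past the threshold with age.

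SCPL34, a serine carboxypeptidase-like gene, and AT2G34930, a leucine-rich repeat defence homolog, were far more abundant in leaves, with tissue effects of 8.07 ± 0.173 and 5.08 ± 0.276. SCPL34 had 328, 398 and 268 CPM in eop055 leaves and 139, 153 and 157 CPM in pep1-1 leaves. AT2G34930 had 405, 514 and 205 CPM in eop055 leaves and 123, 104 and 106 CPM in pep1-1 leaves, and fell by 1.90 ± 0.287 with age (adjusted p 0.000125). The legume lectin homolog AT3G15356 was listed as lower in 5-week eop055 apices, with 3.77, 5.81 and 6.57 CPM in eop055 and 15.5, 16.9 and 14.3 CPM in pep1-1, and was higher in leaves by 5.30 ± 0.274. At 3 weeks it stood at 17.9 ± 7.49 CPM in eop055 and 17.9 ± 3.6 CPM in pep1-1 apices.

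CYS4, a phytocystatin, and ATBBE26, of the berberine bridge enzyme family, were listed as lower in 5-week eop055 apices too. CYS4 had 55.5, 62.1 and 48.3 CPM in eop055 and 134, 126 and 132 CPM in pep1-1 apices at 5 weeks, against 139 ± 28.3 CPM in eop055 and 148 ± 13.3 CPM in pep1-1 apices at 3 weeks. ATBBE26 had 4.74, 4.10 and 3.68 CPM in eop055 and 10.2 to 12 CPM in pep1-1 apices at 5 weeks, against 21.3 ± 3.83 CPM in eop055 and 17.5 ± 2.60 CPM in pep1-1 apices at 3 weeks. The genotypes were apart at 5 weeks and overlapped at 3 weeks in both genes, and ATBBE26 was lower at 5 weeks in both genotypes, with an age effect of -1.48 ± 0.145 (adjusted p 5.18e-08).

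Another 6 members of this class were listed as higher in eop055 leaves. The SKU5-like gene sks17 had 156 ± 59.6 CPM in eop055 and 75.6 ± 9.46 CPM in pep1-1 leaves, and fell by 1.00 ± 0.179 with age. AT1G33590 had 219 ± 70.8 CPM in eop055 and 110 ± 3.90 CPM in pep1-1 leaves, and fell by 0.71 ± 0.140 with age. MUR4, which makes UDP-arabinose for wall polymers, had 38.5 ± 12.3 CPM in eop055 and 15.6 ± 1.38 CPM in pep1-1 leaves, and AT4G29310, of unknown function, had 20.8 ± 7.80 CPM in eop055 and 8.35 ± 1.03 CPM in pep1-1 leaves. Both were lower in leaves than in apices, with tissue effects of -1.02 ± 0.126 and -1.23 ± 0.137. The LysM gene AT5G23130 had 62.4 ± 23.6 CPM in eop055 and 24.0 ± 2.37 CPM in pep1-1 leaves, and the protease homolog AT4G16563 had 8.99 ± 2.02 CPM in eop055 and 3.87 ± 0.974 CPM in pep1-1 leaves. In none of the 6 did the leaf libraries of the genotypes overlap.

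PRX71, a wall-bound peroxidase of lignification, was listed in both 3-week apices and leaves. It had 63.5, 73.2 and 34.8 CPM in eop055 leaves and 38.7, 19.8 and 19.5 CPM in pep1-1 leaves, and 1.36, 7.68 and 4.22 CPM in eop055 and 1.15, 0.553 and 1.42 CPM in pep1-1 apices at 3 weeks. The libraries overlapped in both, with log2 differences of 1.13 ± 0.424 and 2.06 ± 0.738 in leaves and 3-week apices. In 5-week apices PRX71 stood at 0.355 ± 0.362 CPM in eop055 and 0.573 ± 0.251 CPM in pep1-1. PRX71 fell by 2.23 ± 0.747 with age (adjusted p 0.0254), a call lost without eop055 replicate 2 at 5 weeks (-1.92) or pep1-1 replicate 1 (-2.20) or 3 (-2.07) at 3 weeks. In pep1-1 apices alone its age effect of -0.82 ± 1.12 was not called.

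Chitinases cut chitin, a polymer of fungal walls. AT2G43590, of this family, had 5.45, 22.2 and 11.7 CPM in eop055 and 3.46, 1.38 and 2.16 CPM in pep1-1 apices at 3 weeks, where it was listed as higher. At 5 weeks it was at 0.615 ± 0.303 CPM in eop055 and 1.09 ± 0.187 CPM in pep1-1 apices, and in leaves at 10.6 ± 1.78 CPM in eop055 and 11 ± 0.543 CPM in pep1-1. It fell by 2.74 ± 0.411 with age (adjusted p 7.39e-05), and the genotypes overlapped in leaves. The high eop055 level at 3 weeks that listed it enters this effect. In pep1-1 apices alone the age effect of -1.06 ± 0.609 was not called. The protease homolog AT1G03220 had 1.23, 8.29 and 5.08 CPM in eop055 and 0.999, 0.345 and 2.53 CPM in pep1-1 apices at 3 weeks, and 1 count in all 6 libraries of 5-week apices against 263 at 3 weeks, a ratio of 256 in favour of 3 weeks (95% Clopper-Pearson interval 45.5 to 10100). Its 3-week genotype difference of 1.87 was 2.86 without pep1-1 replicate 3 and 1.23 without eop055 replicate 2.

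The second chitinase, AT4G01700, differed between genotypes in all 3 places. It was listed as higher in 5-week eop055 apices, with 5.15, 4.40 and 2.56 CPM in eop055 and 1.78, 2.18 and 1.66 CPM in pep1-1. At 3 weeks it had 5.79, 7.06 and 6.18 CPM in eop055 and 3.07, 3.80 and 3.21 CPM in pep1-1, with no overlap (0.91 ± 0.202, adjusted p 0.00945). In leaves it had 26.9, 32.6 and 27.9 CPM in eop055 and 24.9, 20.1 and 17.5 CPM in pep1-1, again with no overlap (0.48 ± 0.159, adjusted p 0.0272). The 3-week call was lost without pep1-1 replicate 3 (0.88) or eop055 replicate 2 (0.83) of those apices, and the leaf call without pep1-1 leaf replicate 2 (0.46) or 3 (0.37) or eop055 leaf replicate 2 (0.40).

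BCAT-2, a branched-chain amino acid transaminase whose description names wall development, was listed as higher in eop055 in both 5-week apices and leaves, so neither difference is tested. It had 17.6, 13 and 13.6 CPM in eop055 and 4.52, 6.33 and 4.29 CPM in pep1-1 apices at 5 weeks, with no overlap (1.56 ± 0.235). At 3 weeks the order was not seen, with 1.23, 3.56 and 2.82 CPM in eop055 and 3.23, 2.83 and 4.5 CPM in pep1-1 and no call. Its leaf counts summed to 35 in eop055 and to 1 in pep1-1, which makes 39.1-fold (95% Clopper-Pearson interval 6.57 to 1590). BCAT-2 was the only member of its class called higher with age, by 1.52 ± 0.183, and its tissue effect was -5.13 ± 0.339. The high 5-week eop055 apical level that listed it enters the age effect. In pep1-1 apices alone its age effect of 0.49 ± 0.264 was not called.

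SBT3.13, a subtilase, had no count in any of the 9 pep1-1 libraries. In eop055 it had 44 counts in 5-week apices, where it was listed as higher, and was there at least 11.8-fold above a floor of 3 counts over the pep1-1 group. In eop055 leaves it had 7 counts, at least 2.61-fold above that floor, and was called (adjusted p 0.0365), a call lost without any 1 of the 6 leaf libraries. In 3-week eop055 apices it had 1 count, and its age effect was not called. AT5G21100, an ascorbate oxidase homolog listed as lower in eop055 leaves, had 10.3, 14.4 and 12.2 CPM in eop055 and 16.8, 20.2 and 29.6 CPM in pep1-1 apices at 3 weeks, with no overlap (-0.86 ± 0.220, adjusted p 0.0373). The call was lost with only the 3-week apices in the fit (-0.86) and without any 1 of 9 libraries, with values between -0.59 and -0.99.

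Counted over all members, the genotype effect in leaves could be tested on 21 that only a list from apices had named. Of these 5 were higher and 2 lower in eop055 leaves, where 15.0% and 11.6% of all genes tested were higher and lower, and 15.9% and 5.59% of all genes listed from apices alone. The 5 were XTH31, XTH7, XTH8, AT4G01700 and SBT3.13, and the 2 were CC3 and FLA12. Between 2 and 8 were higher and between 0 and 4 lower when 1 library was left out. With only the leaf groups in the fit 3 were higher, XTH7, AT4G01700 and AT3G10720, and 1 was lower, GAUT12. Without overlap, 6 were higher and 2 lower, against 19.4% and 17.7% of all genes.

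In 5-week apices 45 members named only by another list could be tested, and 1, AT1G10640, was higher and 0 lower in eop055, where 7.16% and 7.3% of all genes tested were higher and lower, and 4.24% and 2.76% of all genes listed only elsewhere. Without overlap, 3 were higher and 10 lower, against 15.4% and 15.1% of all genes. At an unadjusted p under 0.05 edgeR gave 3 higher and 2 lower, and DESeq2 called 1 higher and 1 lower. With only these apices in the fit 2 were higher and 6 lower, the 6 being AGP12, GAE1, MUR4, AT1G33590, AT2G34930 and AT4G29310. Between 0 and 2 were higher and between 0 and 5 lower when 1 library was left out, the 5 without eop055 leaf replicate 3. Of 10 markers of floral organs and meristems, 8 were found among the authors' listed genes, where alone markers were looked up. A listed genotype difference thus chose these 8, so their levels by genotype are a description. They summed to 29.7 to 71.6 CPM in eop055 and 5.84 to 7.09 CPM in pep1-1 apices at 5 weeks. The sums at 3 weeks were 7.61 to 8.99 CPM in eop055 and 8.63 to 12 CPM in pep1-1 apices. SEP1 and SEP3 were at 0 in the 5-week pep1-1 apices and none was at 0 in those of eop055. The part of floral tissue in the wall genes' 5-week genotype differences and age effects was not tested.

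In 3-week apices 55 members could be tested, and 2 were higher, XTH7 and AT4G01700, and 1 lower, AT5G21100, where 2.58% and 1.1% of all genes tested were higher and lower, and 3.04% and 1.2% of all genes listed only elsewhere. Without overlap, 11 were higher and 2 lower, against 13.6% and 12.4% of all genes. Between 0 and 4 were higher and between 0 and 1 lower when 1 library was left out. Of 35 members listed as higher in leaves and not in 5-week apices, 1 was higher and 0 lower in 5-week eop055 apices, with a median log2 difference of -0.05, against 2.63% and 2.21% of 723 other such genes. At an unadjusted p under 0.05 edgeR gave 1 of the 35 as higher and 2 as lower, and DESeq2 called 1 and 1. Of 34 listed as higher in leaves and not in 3-week apices, 0 were called at 3 weeks, with a median of 0.11, against 2.18% higher and 0.272% lower of 734 other such genes. At an unadjusted p under 0.05 edgeR gave 3 of the 34 as higher and 0 as lower at 3 weeks, and DESeq2 called 0 in either direction. These shares are near those of the other genes on the same list. A difference that misses the threshold does not show that the genotypes were equal there.

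**Figure D5:**
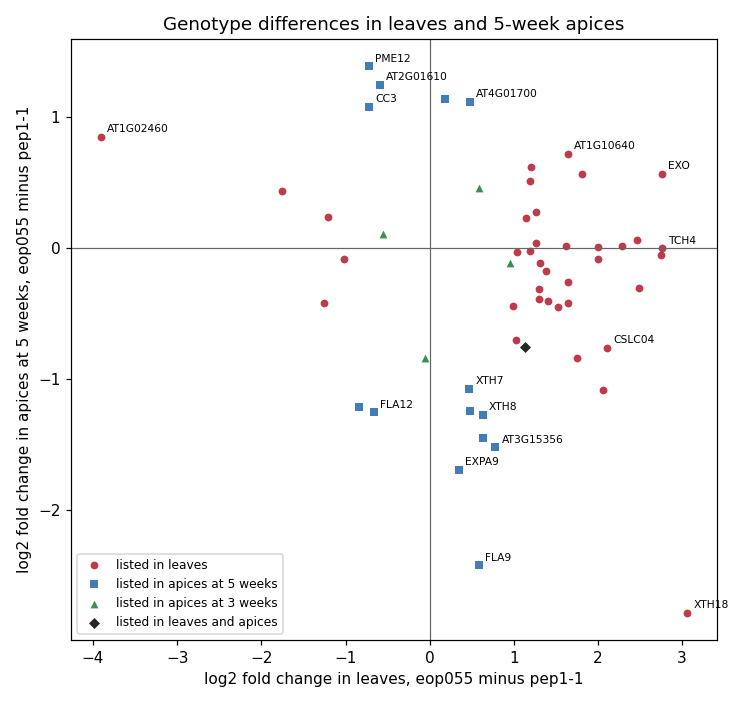
Log2 fold change of eop055 over pep1-1 in leaves (x axis) and in 5-week apices (y axis), 1 point a member, coloured by the tissue and age of the authors' listing; members with 3 or fewer counts on a side and the untested AT1G44130 are not drawn. Each point was chosen for its value on the axis of its listing. XTH7 lies at 0.47 in leaves and -1.07 in apices, and CC3 at -0.72 and 1.08.

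Another 14 listed genes were found by words for lignin, xylan, glucan, mannan, peroxidase, galactosidase and related terms. In these 11 were higher and 3 lower in leaves, and 2 rose and 7 fell with age, with medians of 2.57 and -0.71 on the log2 scale. Among all listed genes with a locus 68.1% were higher and 23.8% lower in leaves, and 14.3% rose and 28.7% fell with age. The shares of all genes tested were 40.4% and 46.8% in leaves and 24.0% and 25.3% with age. The largest called fall with age and the largest called rise in leaves were both in BGL2, a beta-glucanase of defence, with 0 counts in 5-week apices, 223 in 3-week apices and 1830 in leaves; it was at least 72.3-fold lower at 5 than at 3 weeks and at least 922-fold higher in leaves. BGLU46, a beta-glucosidase of lignin precursors, had 2 counts in leaves and 770 in 5-week apices, a ratio of 255 in favour of apices (95% Clopper-Pearson interval 70.3 to 2110). The largest called rise with age was in GBSS1, a starch synthase that the word glucan found, by 0.76 ± 0.0991.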

How the data were processed

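Apex and leaf RNA with poly(A) tails was made into directional libraries, per the labels. The authors deposited raw counts for each gene in 18 libraries; STAR, HTSeq 0.5.4p1, DESeq and DESeq2 are named in the submitters' processing notes. The 6 deposited lists give log2 fold changes of the authors, as their file headers show, used only for the direction and smallest size of a listing. The genome build, annotation and strand setting were not stated in these sources, so antisense and overlapping genes are uncertain. Entries naming no gene stayed out of library sizes (reads outside genes 7.76 to 16.6%, ambiguous reads 2.01 to 3.60% of a library).

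Counts were analysed with edgeR 4.0.16 (R 4.3.3, limma 3.58.1): filterByExpr over 6 groups, TMM scaling (factors 0.651 to 1.27), 1 robust quasi-likelihood fit of 18 libraries, tested on simulated data. The SE is the log2 fold change over the square root of F. For a group at 0, 3 counts summed over its libraries served as floor; 95% intervals cover counting error only. Replicate pairs differed beyond sampling noise (chi-square per gene 1.50 to 24.7). Same-numbered libraries correlated between -0.199 and 0.208, so numbers were not taken as pairs. The members and lists were chosen with earlier results of these data known. Genes named are all of classes of 5 or fewer, the 4 largest called age and tissue effects of at least 5 CPM and the 3 largest listed genotype differences per class and place, members listed in more than 1 place, and members called where their listing used other libraries; GAE1, AGP12, XTH16 and, for completeness, the remaining pectin and cell wall members were added after their values were seen. Markers were looked up only among the authors' listed genes with a locus and a single entry, not in the whole count table. No gene of the shoot meristem, photosynthesis and anther lists was among them (0 of 4, 0 of 3 and 0 of 3). Tissue labels were therefore not checked against these lists. Alternatives were RLE scaling, no filter, 50 counts in 3 libraries, DESeq2 1.42.0, only the groups compared, a replicate block, leaving out each library and, chosen after seeing the data, age and tissue contrasts of pep1-1 alone. Figures were drawn with matplotlib 3.10.9.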

Additional observations from a re-analysis of the deposited data

Results flagged for a closer look

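In 15 members the libraries of the genotypes did not overlap in 2 places and ran in opposite directions there, by log2 differences of eop055 over pep1-1. They make up 24.2% of the 62 members tested, against 11.2% of all genes tested and 20.7% of all listed genes with a locus. Whether the places differ was not tested. XTH18 stood at 3.06 in leaves and -2.78 in 5-week apices. XTH7 stood at 0.47 in leaves, -1.07 in 5-week apices and 0.64 in 3-week apices. CC3 stood at -0.72 in leaves and 1.08 in 5-week apices. CSLA03 stood at 1.41 in leaves, -0.4 in 5-week apices and 0.17 in 3-week apices. CSLC04 stood at 2.11 in leaves and -0.76 in 5-week apices. FLA9 stood at 0.59 in leaves and -2.42 in 5-week apices.

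AT1G02460 stood at -3.91 in leaves, 0.85 in 5-week apices and 0.66 in 3-week apices. GAE1 stood at 1.64 in leaves, -0.42 in 5-week apices and 0.37 in 3-week apices. GAUT12 stood at -0.55 in leaves and 1.01 in 3-week apices, and AT2G01610 at 1.25 in 5-week and -0.23 in 3-week apices. The leucine-rich repeat genes AT1G33590 and AT2G34930 stood at 0.99 and 1.75 in leaves and at -0.44 and -0.84 in 5-week apices. AT4G29310, of unknown function, stood at 1.3 in leaves and -0.39 in 5-week apices, the LysM gene AT5G23130 at 1.38 in leaves and -0.17 in 5-week apices, and MUR4, which makes UDP-arabinose, at 1.3 in leaves and -0.31 in 5-week apices. Each of these members was listed in at least 1 of the places, so 1 of its values was chosen for its size. Of the values from other places, those of XTH7 in leaves and 3-week apices and of CC3 in leaves were called.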

How the results depend on the processing

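Of the calls of all members, 60 of 60 tissue calls, 28 of 35 age calls and 1 of 11 genotype calls, that of XTH7 in leaves, held under every alternative that tested them other than the contrast of pep1-1 alone, and no direction reversed under those alternatives. With only the groups compared in the fit, genes called in leaves numbered 3424 instead of 5661 and in 3-week apices 1712 instead of 783. Members called where only another list had named them were then 3 higher and 1 lower in leaves (instead of 5 and 2), with 2 of the 3 and 0 of the 1 called before, 2 higher and 6 lower in 5-week apices (instead of 1 and 0), and 7 higher and 0 lower in 3-week apices (instead of 2 and 1). With DESeq2 4 were lower in leaves and 1 in 5-week apices. Leaving out 1 library gave 2 to 8 higher and 0 to 4 lower in leaves, 0 to 2 higher and 0 to 5 lower in 5-week apices, and 0 to 4 higher and 0 to 1 lower in 3-week apices, where all genes called ranged between 359 and 1008. In 3-week apices that number was 359 when pep1-1 replicate 2 was dropped, 378 when pep1-1 replicate 3 was, and 375 when eop055 replicate 2 was. The cause was not tested. Same-numbered libraries were not pairs (correlations -0.199 to 0.208). With the replicate block 7 members rose and 30 fell with age, 44 were higher and 16 lower in leaves, 2 instead of 1 were higher in 5-week eop055 apices, genes called in the 3 genotype comparisons were 5646, 3191 and 794, and no member's call was lost. With pep1-1 libraries alone in the contrast, chosen after seeing the data, 4 members rose and 14 fell with age, and 40 were higher and 15 lower in leaves. Scaling moved the median tissue effect of all genes, -0.136 with TMM and -0.04 with RLE.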
